A study of Mus musculus with 2 samples.

Results

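Open chromatin was described at 9 mouse genes of dopamine signalling, namely the dopamine receptor genes Drd1, Drd5, Drd2, Drd3 and Drd4, and the genes Adora2a, Ppp1r1b, Rgs9 and Pde10a, which are known for high expression in striatal projection neurons. The genes were picked by GENCODE M21 symbol, and all 9 were found among 21938 protein-coding genes on the chromosomes. The assay was DNase-seq, which maps where the enzyme DNase I can reach and cut the DNA of nuclei. It was run on 2 libraries, labelled biological replicates 1 and 2, of tissue from the left cerebral cortex; the mice were male, of strain B6CASTF1/J and 8-10 months old. These mice are hybrids of a laboratory strain with a castaneus strain, no treatment is labelled, and the libraries form a single group. The labels give both libraries 1 donor identifier, with a separate biosample identifier for each. If that identifier stands for 1 animal, the SDs below leave out variation between animals. In bulk tissue, fewer cells of a type and less accessibility per cell cannot be told apart.

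Dopamine receptors are G protein-coupled receptors of a D1-like class (Drd1, Drd5), which raises cyclic AMP, and a D2-like class (Drd2, Drd3, Drd4), which lowers it. In striatal projection neurons, cyclic AMP activates protein kinase A, which phosphorylates DARPP-32, the product of Ppp1r1b and a switchable inhibitor of protein phosphatase 1. Adora2a encodes an adenosine receptor that raises cyclic AMP and opposes D2 receptors in the same cells. The protein made from Rgs9 shortens G protein signals, and the phosphodiesterase made from Pde10a degrades cyclic nucleotides.

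The authors deposited a stricter and a broader peak list per library. The stricter lists had 40705 peaks in replicate 1 and 39508 in replicate 2, and the broader lists 71210 and 72217. Footprints, stretches of a few bases that are protected from cutting within open DNA, numbered 166128 and 174394. The signal value deposited with a peak is called its strength here, and its median was 1.22 and 1.15 in the stricter lists. Read totals were not used here, so depth is unknown. A promoter peak is one that came within 1000 bp of the annotated start of any of a gene's transcripts. As a check of the tissue, marker genes with a promoter peak of the stricter list in both libraries were counted, beside 54.9% of all protein-coding genes. Of 7 markers of cortical excitatory neurons, 4 had such a peak (Tbr1, Neurod6 and Camk2a among them), while Slc17a7, Neurod2 and Emx1 did not. Such a peak was found for none of 6 inhibitory neuron, 1 of 4 astrocyte and none of 4 oligodendrocyte markers. None of 4 microglia and none of 3 endothelial markers had one. It was found for 2 of 6 markers of striatal projection neurons outside the 9 genes and for 2 of 6 genes of organs outside the brain. In the broader lists of both libraries, 5 of 7 excitatory, 4 of 6 inhibitory, 2 of 4 astrocyte and 2 of 4 oligodendrocyte markers had one. So did none of the microglia and endothelial markers, 3 of 6 striatal markers and 2 of 6 genes of other organs, beside 60.8% of all genes. The excitatory counts lay near the shares of all genes, so these short lists do not identify the tissue. Genes of other organs thus had promoter peaks too, and a promoter peak is not read as expression.

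The members fell into genes with a promoter peak and genes with almost none. Drd1, Adora2a, Rgs9 and Pde10a had a promoter peak of the stricter list in both libraries, which is 4 of the 9 members, beside 54.9% of all protein-coding genes. Ppp1r1b joined them in the broader list, which gave 5 of 9 members beside 60.8% of all genes. With 9 genes these counts lie near the background. Drd2, Drd3, Drd4 and Drd5 had no promoter peak of the stricter list in either library, and none of them had one of the broader list in both. The promoter strengths of the 4 genes with a stricter peak in both libraries averaged between 1.09 and 2.64. The median of all genes with such a peak was 2.66 in replicate 1 and 2.32 in replicate 2, so Rgs9 stood near the middle and Drd1, Pde10a and Adora2a in the lower part.

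**Figure D1:**
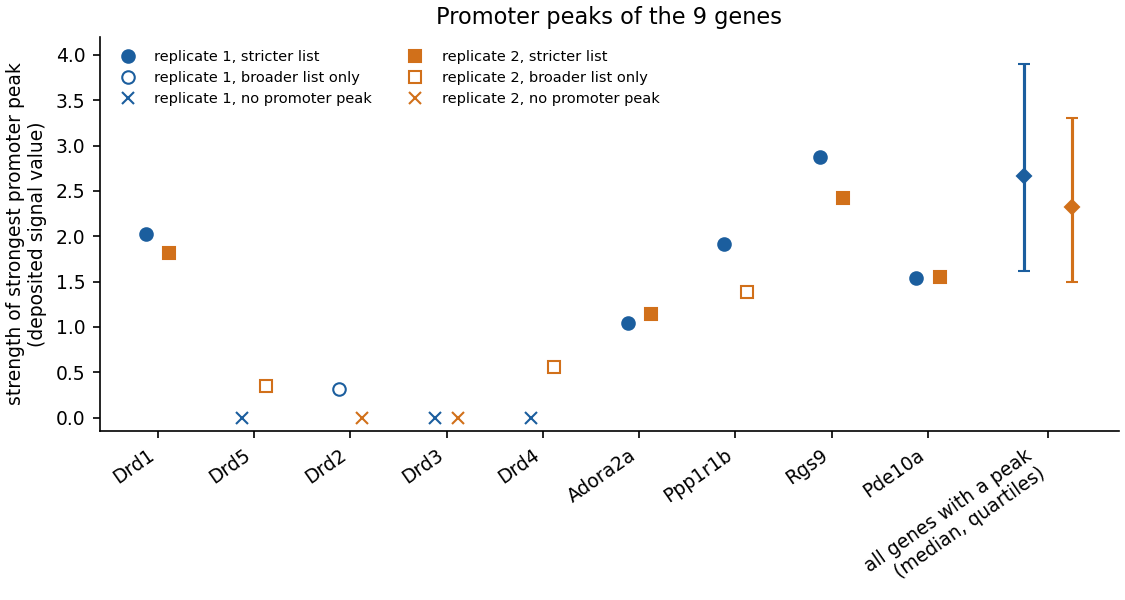
Strength of the strongest promoter peak (vertical axis, deposited signal value) of the 9 genes in replicate 1 (circles) and replicate 2 (squares); open symbols are peaks of the broader list alone and crosses, drawn at 0, mark genes without a promoter peak. The diamonds at the right give the median and quartiles over all protein-coding genes with a stricter promoter peak; Rgs9, at 2.87 and 2.42, is the member nearest to them.

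Drd1, the main D1-class receptor gene of the striatum, which is also used by some deep-layer cortical neurons, lies at chr13:54051183-54055705 on the minus strand (mm10) and spans 4.52 kb. Its promoter peak had a strength of 2.02 in replicate 1 and 1.81 in replicate 2, or 1.92 ± 0.144 (SD, n = 2). That put it at percentile 34.8 in each library among genes with a promoter peak. The peak covered chr13:54055621-54055840 in replicate 1 and chr13:54055621-54055860 in replicate 2, across the 5′ end of the gene. A weaker peak in an intron, chr13:54055041-54055291, was in the stricter list of replicate 2 (0.75) and overlapped a peak of the broader list in replicate 1 (0.682). Footprints within 1000 bp of a Drd1 start numbered 4 and 8. The bases upstream of the start that lay in the promoter peaks are shown because a long protected stretch recurs there. They are chr13:54055706-54055830 of the RefSeq GRCm38.p6 genome, read 5′ to 3′ on the minus strand, with bases footprinted in both libraries in capitals.
Drd1 promoter: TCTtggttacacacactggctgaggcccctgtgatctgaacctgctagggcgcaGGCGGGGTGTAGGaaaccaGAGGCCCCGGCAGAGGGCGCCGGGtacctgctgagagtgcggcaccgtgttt

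Of these bases, 40 were footprinted in both libraries. The longest protected run held a match to the core of the recognition sequence of CTCF, a DNA-binding protein that shapes chromatin loops, which is taken up with the other matches below.

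Drd5, the second D1-class receptor gene, and the D2-class genes Drd2 and Drd4 differed from Drd1 in having hardly any peak at the start. Drd5, at chr5:38319367-38322518 on the plus strand, had no peak of either list and no footprint in replicate 1. In replicate 2 it had no footprint and 1 peak of the broader list, of strength 0.352, at 234 bp inside the gene. Neither library had a stricter peak in its window. The deposited table of false discovery rates (FDR), which lists short intervals under 0.05, had none in the window in replicate 1 and 45 in replicate 2; 20.5% and 20.1% of all gene windows had none. An antisense gene, Gm26560, runs across the start of Drd5, so the peak lay in the bodies of both genes. No annotated start of another gene lay within 1000 bp of the peak.

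Drd4, at chr7:141292006-141296464 on the plus strand, also had no peak of either list in replicate 1. In replicate 2 it had 1 peak of the broader list, of strength 0.556, over coding exon at 206 bp. The FDR table had no interval in the window in replicate 1 and 72 in replicate 2. The peak held the single footprint found in its window, again in replicate 2. The start of Deaf1, a neighbouring gene whose body enters the window, lay outside it.

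Drd2, the D2 receptor gene, at chr9:49340627-49408177 on the plus strand, had 2 weak promoter peaks of the broader list in replicate 1, of strength 0.313 and 0.303, and none in replicate 2. Inside the gene, at 45.7 kb, a peak of strength 0.588 was in the stricter list of replicate 1, and replicate 2 had one of 0.537 there in the broader list. Each library had 1 footprint in the window, and the 2 footprints did not overlap. The gene next to Drd2, Ankk1, had no peak in the part of its body that the window holds.

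Drd3, the D3 receptor gene, at chr16:43754026-43822932 on the plus strand, had no peak of either list at its 2 annotated starts in either library. Its accessible site was intronic, centred 48.2 kb from the 5′ end, where both libraries had a stricter peak. Its strength was 1.43 in replicate 1 and 1.83 in replicate 2, or 1.63 ± 0.284 (SD, n = 2). Among 13295 distal peaks that both libraries shared (those over 1000 bp from every annotated start) this was percentile 61.6 in replicate 1 and 79.3 in replicate 2. Drd3, like Drd2, thus had its strongest peak far from a start, and the one in Drd3 was the stronger of these. The lowest deposited FDR in that peak was 1.01e-12 in replicate 1 and 1.32e-12 in replicate 2. The peak of replicate 1, chr16:43802121-43802300, is printed on the plus strand (RefSeq GRCm38.p6), with the 36 bases footprinted in both libraries in capitals.
Drd3 intron: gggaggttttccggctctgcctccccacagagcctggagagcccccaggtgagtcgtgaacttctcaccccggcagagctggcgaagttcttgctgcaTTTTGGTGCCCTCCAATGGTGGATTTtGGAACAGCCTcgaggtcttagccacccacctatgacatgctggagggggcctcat

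No match to any of the 13 consensus sequences searched was found in the Drd3 site. A microRNA gene, Gm25996, lies 4.78 kb from it. The protected bases formed 1 long footprint in replicate 2 and a pair of adjoining footprints in replicate 1.

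**Figure D2:**
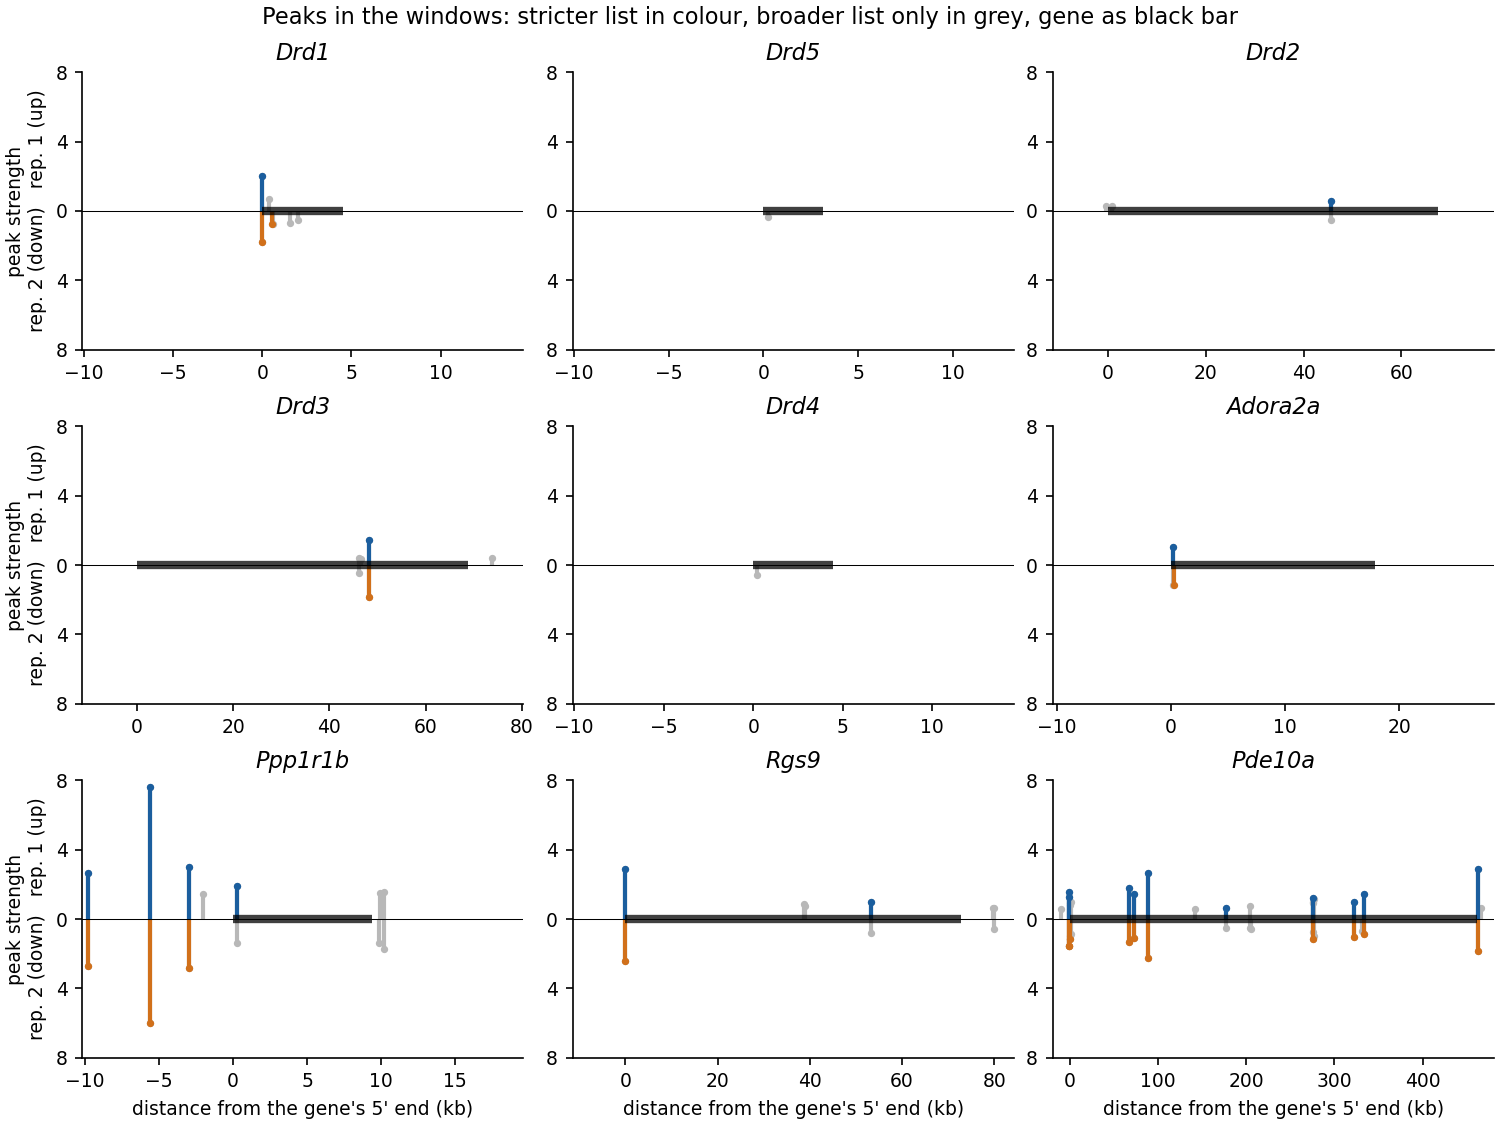
Peaks of each gene by distance from its 5′ end (horizontal axis, kb), with strength up for replicate 1 and down for replicate 2; coloured lines are stricter peaks, grey lines are in the broader list alone and the black bar is the gene. The panels of Drd5 and Drd4 hold no coloured line, and the strongest line of all stands upstream of Ppp1r1b at 7.62 and 6.0.

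Adora2a, at chr10:75316877-75334784 on the plus strand, had 1 stricter peak in each library and no other peak of either list in its window. It covered exon bases outside the coding sequence around the start of the second annotated transcript, 225 bp from the 5′ end, and had a strength of 1.04 in replicate 1 and 1.14 in replicate 2, or 1.09 ± 0.0681 (SD, n = 2). This was the weakest of the 4 promoter peaks found in both libraries, at percentile 10.8 in replicate 1 and 14.3 in replicate 2 among genes with a promoter peak. The starts at 6243 and 7981 bp, used by other coding transcripts, had no peak. The window held 2 footprints in replicate 1 and 3 in replicate 2. The window of Adora2a also holds parts of Specc1l and of the pseudogene Gm5779, without a peak.

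Ppp1r1b, at chr11:98348404-98357796 on the plus strand, showed the opposite layout, with a modest promoter and strong peaks upstream. Its promoter peak was in the stricter list of replicate 1, with a strength of 1.91 at 237 bp inside the gene, and in the broader list alone of replicate 2, with 1.38. The lowest deposited FDR there was 0.000275 in replicate 1 and 0.00901 in replicate 2. In replicate 2 the strength of 1.38 exceeded the 1.14 of the Adora2a promoter, which is in the stricter list, so list membership and strength did not rank these 2 genes alike. None of the 5 internal starts of Ppp1r1b had a peak of either list.

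Upstream of Ppp1r1b, 3 intergenic peaks were in the stricter lists of both libraries. They were centred at -9.79, -5.62 and -2.95 kb from the 5′ end. The middle peak, chr11:98342661-98342900 in both libraries, had a strength of 7.62 in replicate 1 and 6.0 in replicate 2, or 6.81 ± 1.15 (SD, n = 2). It was the strongest peak in any of the 9 windows, and stood at percentile 99.9 in replicate 1 and 99.5 in replicate 2 of the distal shared peaks. The peak at -9.79 kb had 2.68 in replicate 1 and 2.7 in replicate 2, or 2.69 ± 0.0151. The peak at -2.95 kb had 2.99 in replicate 1 and 2.83 in replicate 2, or 2.91 ± 0.114. All 3 exceeded the promoter peak of the gene in both libraries. The nearest start of another gene was that of Neurod2, a neuronal transcription factor gene, at 8.97 kb from the first and 13.1 kb from the second peak. For the third it was that of 1700003D09Rik at 12.8 kb. Which gene, if any, these sites act on was not tested.

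The peak at -9.79 kb was GC-rich, with 73% GC and 25 CpG in 200 bp, against a median of 52% GC in distal shared peaks and 64% in shared peaks near a start. No annotated start lies there in the gene set used. The peak at -5.62 kb held 7 footprints in replicate 1 and 4 in replicate 2, and 88 of its central 200 bp were footprinted in both, the most of any shared peak in the 9 windows. Those bases, chr11:98342681-98342880 on the plus strand (RefSeq GRCm38.p6), are shown for the 3 blocks of protection, in capitals, that recur in both libraries.
Ppp1r1b upstream: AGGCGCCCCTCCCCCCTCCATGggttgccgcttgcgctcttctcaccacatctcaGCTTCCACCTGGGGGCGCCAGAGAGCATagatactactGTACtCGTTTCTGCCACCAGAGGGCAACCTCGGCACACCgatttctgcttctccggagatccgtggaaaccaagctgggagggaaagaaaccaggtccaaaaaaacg

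Rgs9, at chr11:109225355-109298129 on the minus strand, had the strongest promoter peak of the 9 genes. It reached 2.87 in replicate 1 and 2.42 in replicate 2, or 2.64 ± 0.322 (SD, n = 2), at percentiles 54.7 and 52.4 among genes with a promoter peak. The 3 starts within 63 bp of each other at the 5′ end share that peak. The 2 internal starts, at 47978 and 51164 bp, had no peak of either list. An intronic site at 53.2 kb was in the stricter list of replicate 1 at 0.986 and in the broader list of replicate 2 at 0.787. Its lowest deposited FDR in replicate 2 was 0.000233, so an FDR under 0.001 did not by itself place a peak in the stricter list. Upstream bases of the promoter, chr11:109298130-109298260, which lie within the peak of replicate 1 and in part within that of replicate 2, read on the minus strand (RefSeq GRCm38.p6), are shown with the bases footprinted in both libraries in capitals.
Rgs9 promoter: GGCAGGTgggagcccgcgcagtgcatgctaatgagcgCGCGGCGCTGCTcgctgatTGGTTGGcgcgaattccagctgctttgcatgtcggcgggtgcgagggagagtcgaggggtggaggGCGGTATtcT

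The first run in capitals is the edge of a longer footprint, 28 bp in replicate 1 and 26 bp in replicate 2, which goes on upstream of the printed bases. A GC box (GGGCGG on either strand, the site of SP and KLF factors) lay at chr11:109298136-109298141, with 4 of its 6 bases in footprints of replicate 1 and 6 in replicate 2. GGGCGG was found in 50.5% of the shared peaks near a start and in 11.5% of the distal ones, so it is common at promoters of this kind.

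Pde10a, at chr17:8525372-8986648 on the plus strand, is 461 kb long and has 14 transcripts from 13 starts. The pseudogenes Gm15425 and Gm15426 and the coding gene Gm17087 lie inside it on the other strand. It had 10 stricter peaks in each library, the most of the 9 genes, in the longest window (481 kb). Per 10 kb these were 0.208 in each library, beside medians of 0.304 in replicate 1 and 0.295 in replicate 2 over all genes. Its promoter held a pair of shared peaks. The one centred at -0.385 kb had a strength of 1.54 in replicate 1 and 1.55 in replicate 2 (mean 1.55 ± 0.000926, SD, n = 2), and the one at -0.763 kb had 1.29 in replicate 1 and 1.55 in replicate 2. Another, at 273 bp inside the gene, was in the stricter list of replicate 2 at 1.15 and in the broader list of replicate 1 at 0.929. An internal start of the coding transcript Pde10a-202, at 276 kb, had a stricter peak of 1.19 in replicate 1 and 1.15 in replicate 2. The starts at 1429 and 1654 bp had peaks of the broader list alone, of 0.976 in replicate 1 and 0.963 in replicate 2, and the other 7 starts further in had no peak of either list. The promoter sequence, chr17:8524887-8525085 on the plus strand (RefSeq GRCm38.p6), had 9 bases footprinted in both libraries, in capitals, which is few beside the other promoters printed here.
Pde10a promoter: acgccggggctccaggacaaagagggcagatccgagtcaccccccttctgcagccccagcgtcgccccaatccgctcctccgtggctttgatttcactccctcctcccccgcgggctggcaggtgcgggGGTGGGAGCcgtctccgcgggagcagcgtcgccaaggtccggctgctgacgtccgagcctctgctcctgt

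In its introns, Pde10a had 5 stricter peaks in both libraries. The strongest, at 89 kb, had 2.65 in replicate 1 and 2.25 in replicate 2, or 2.45 ± 0.286 (SD, n = 2). This was more than the strongest promoter peak had in either library. Summed over all stricter promoter peaks of Pde10a, the one at 276 kb included, the strength was higher, at 4.71 ± 0.962 (SD, n = 2). The intronic peak at 89 kb stood at percentile 92.2 in replicate 1 and 87.4 in replicate 2 of distal shared peaks. The others lay at 67.5 kb (1.79 in replicate 1 and 1.31 in replicate 2), 72.6 kb (1.47 and 1.1), 322 kb (0.976 and 1.06) and 333 kb (1.47 and 0.88). A sixth, at 177 kb, was in the stricter list of replicate 1 at 0.626 and in the broader list of replicate 2 at 0.509. The peak at the far end of the window, 463 kb from the 5′ end, had 2.86 in replicate 1 and 1.82 in replicate 2, but it covers the start of the next gene, 1700010I14Rik, and is a promoter peak of that gene. The site at 89 kb, chr17:8614241-8614440 on the plus strand (RefSeq GRCm38.p6), is shown because its central footprint, 46 bp in replicate 1 and 45 bp in replicate 2, was the longest in the 9 windows in replicate 1 and shared that place with the Drd1 promoter footprint in replicate 2.
Pde10a intron: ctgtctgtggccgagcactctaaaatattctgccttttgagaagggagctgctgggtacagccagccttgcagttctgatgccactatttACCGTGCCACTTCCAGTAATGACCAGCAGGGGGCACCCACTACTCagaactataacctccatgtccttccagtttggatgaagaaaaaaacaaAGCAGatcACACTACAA

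Among all footprints it stood at percentile 99.6 of length in replicate 1 and 99.2 in replicate 2. The capitals, again bases footprinted in both libraries, number 59 here.

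Across the 9 windows (gene and 10 kb on each side), stricter peaks numbered 20 in replicate 1 and 18 in replicate 2, broader peaks 43 and 37, and footprints 100 and 101. Broader peaks were counted as listed, also where they overlap. In replicate 1 the Pde10a peak chr17:8801021-8801820 contains those at chr17:8801121-8801280 and chr17:8801641-8801820. At least 1 stricter peak in both libraries was found for 6 of 9 members, Drd3 and Ppp1r1b joining the 4 genes with a promoter peak, beside 70.3% of all genes. At least 1 broader peak in both was found for 7 of 9, Drd2 included, beside 76.6%. The median density over the members was 0.208 stricter peaks per 10 kb in replicate 1 and 0.112 in replicate 2, against 0.304 and 0.295 over all genes. For footprints it was 0.675 and 0.791 per 10 kb over the members, against 1.26 and 1.33 over all genes. Ppp1r1b stood at the other end, with 1.36 stricter peaks per 10 kb in replicate 1 and 1.02 in replicate 2. The medians of the members in the 2 libraries were about as far apart as that of replicate 1 was from all genes, and no test was made. Over gene bodies alone the order turned, with a median over both libraries of 0.141 stricter peaks per 10 kb for the members, against 0.00928 for all genes. A median that low lies near the floor, because many gene bodies held no stricter peak.

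**Figure D3:**
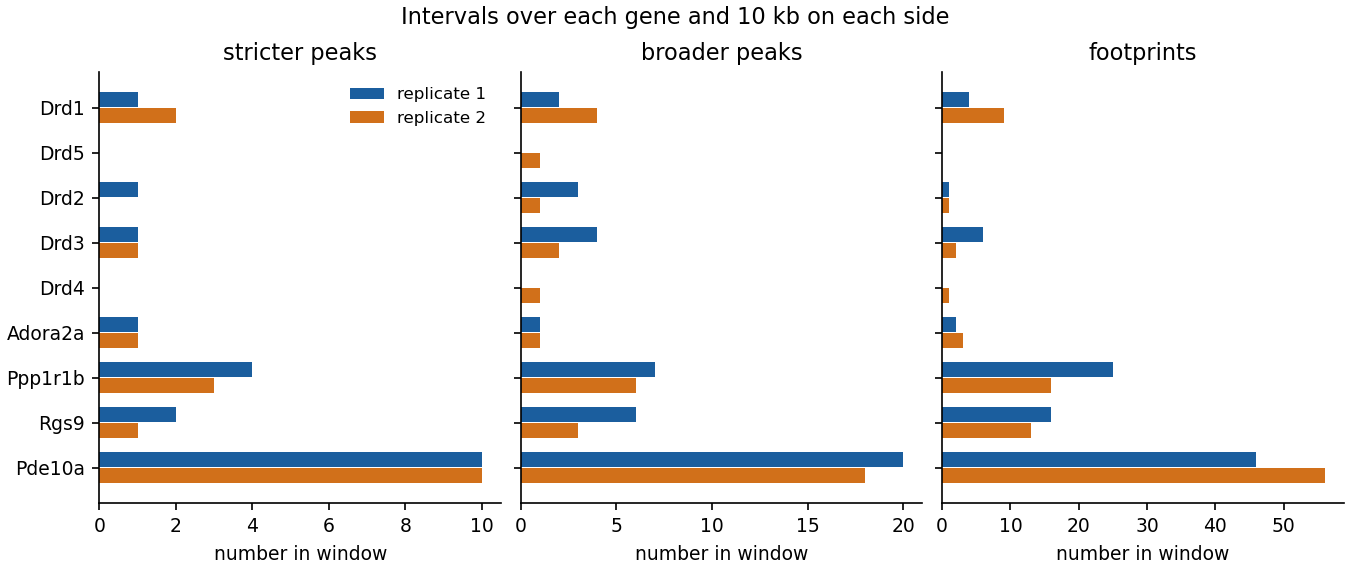
Number of stricter peaks, broader peaks and footprints over each gene and 10 kb on each side (horizontal axes, counts), with replicate 1 above replicate 2. Pde10a, whose window is the longest, leads with 10 and 10 stricter peaks, and Drd5 has no stricter peak and no footprint in either library.

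Of the 20 stricter peaks of replicate 1 in the windows, 16 overlapped a stricter peak of replicate 2 (80%), and 16 of the 18 of replicate 2 overlapped one of replicate 1 (88.9%). Over all peaks these shares were 76.5% and 78.4%. Every one of the members' peaks that missed the stricter list of the other library overlapped a peak in its broader list. The peaks in question were those in the introns of Drd1, Drd2 and Rgs9, at the promoter of Ppp1r1b and at 177 kb and 273 bp in Pde10a. Over all stricter peaks, 91.3% of replicate 1 and 90.3% of replicate 2 overlapped the other library's broader list, so full overlap of few peaks lies near the background. Of the footprints, 46% of replicate 1 and 43.6% of replicate 2 overlapped one in the other library, the same as over all footprints. Footprints of 25 bp or more numbered 10 in replicate 1 and 11 in replicate 2, and each of these overlapped a footprint of the other library. They made up 10% and 10.9% of the members' footprints, beside 8.03% and 7.4% of all footprints. The overlap of all footprints of this length was not computed, so the members' full overlap has no background beside it. A footprint within 1000 bp of a start was found in both libraries for 4 of 9 members, the same 4 that had a stricter promoter peak, beside 59% of all genes.

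Promoters rich in CpG dinucleotides are open in most tissues, so the CpG content of each start was set beside its peak. A start was called CpG-rich where 500 bp on either side of the 5′ end had at least 50% GC and a CpG ratio, observed over expected, of at least 0.6. Drd5, Drd2, Rgs9 and Pde10a had CpG-rich starts. Of these 4, Rgs9 and Pde10a had a stricter promoter peak in both libraries, beside 87.8% of all 9738 CpG-rich starts. Drd2 and Drd5, which have the highest CpG ratios of the 9 genes (0.774 and 0.747), did not. They did not have one in the broader lists of both libraries either, beside 93.2% of CpG-rich starts that did. Of the 5 other members, 2 (Drd1 and Adora2a) had the stricter peak in both, beside 28.6% of the other starts. Ratios near the 0.6 limit were 0.574 for Adora2a and 0.586 for Drd4 below it, and 0.641 for Rgs9 and 0.648 for Pde10a above it. The ratio of Drd3 was 0.279, the lowest. The limit decides these counts: at 0.5, which was chosen after the values were seen, 8 members were CpG-rich and 4 of them had the peak, beside 85.7% of 11172 CpG-rich genes.

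**Figure D4:**
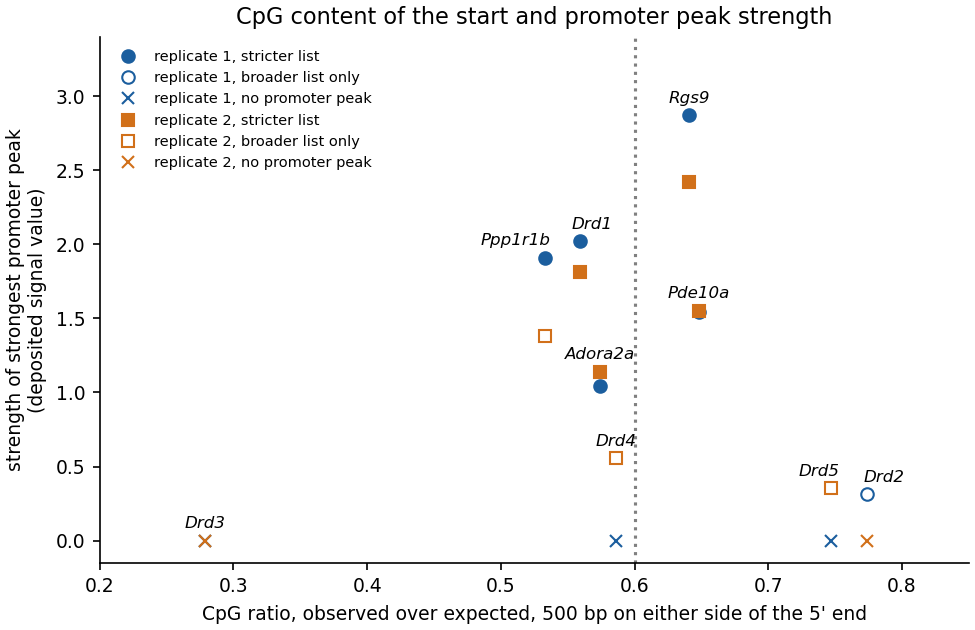
CpG ratio of the start (horizontal axis, dotted line at 0.6) against strength of the strongest promoter peak (vertical axis, deposited signal value) for the 9 genes, with symbols as in the plot of promoter strength. Drd2 and Drd5 stand at the far right, where the strongest promoter peak was one of the broader list in 1 library, at 0.313 and 0.352, and Drd3 at the far left with none.

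Motifs were searched on both strands in 200 bp around the centre of each of the 16 shared peaks, with 13 consensus sequences chosen after the peaks were seen. The CTCF core was found in 5 of the 9 shared distal peaks of the members, beside 20.2% of all shared distal peaks. They were the peaks at -5.62 and -2.95 kb of Ppp1r1b and those at 67.5, 72.6 and 89 kb in Pde10a. It was also found in the Drd1 promoter, beside 3.52% of shared peaks near a start. Several of these peaks share a gene, so they do not count as separate genes. The matches are aligned here in the direction of the motif, with the match in capitals and the build and source as above.
Drd1 promoter, chr13:54055731-54055761, minus strand: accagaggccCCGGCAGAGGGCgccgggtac
Ppp1r1b upstream, chr11:98342777-98342807, plus strand: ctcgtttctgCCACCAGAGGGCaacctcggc
Ppp1r1b upstream, chr11:98345438-98345468, minus strand: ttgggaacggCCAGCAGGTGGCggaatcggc
Pde10a intron, chr17:8592839-8592869, minus strand: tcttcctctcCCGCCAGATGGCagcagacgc
Pde10a intron, chr17:8597950-8597980, minus strand: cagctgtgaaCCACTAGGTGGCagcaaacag
Pde10a intron, chr17:8614343-8614373, plus strand: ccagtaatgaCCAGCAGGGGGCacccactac

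All 6 matches were touched by footprints in both libraries. In 5 of the 6 the whole match lay in footprints of both, and in the Pde10a match at 72.6 kb all 12 bases did in replicate 1 and 8 in replicate 2. Over all 2712 CTCF core matches in shared distal peaks, 93.2% were touched in both libraries and 75.7% lay inside footprints in both. A match is a description of the letters, and binding of CTCF was not measured.

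**Figure D5:**
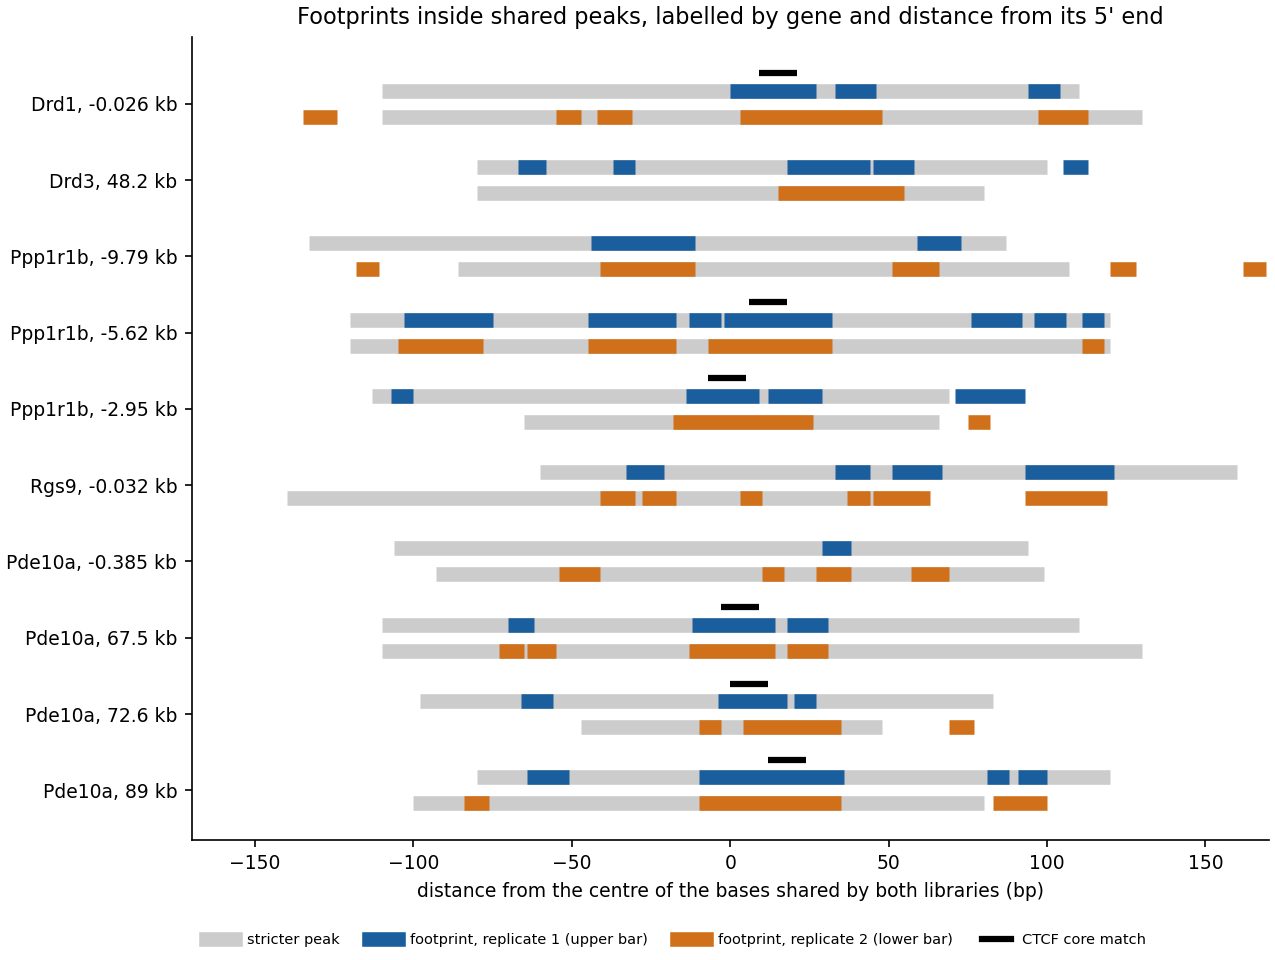
Footprints in the members' shared peaks by distance from the centre of the shared bases (horizontal axis, bp, in genome direction), with replicate 1 (upper bar) and replicate 2 (lower bar); grey bars are stricter peaks and black bars CTCF core matches. In 5 of the 6 peaks with a black bar it lies wholly over footprints of both libraries, and the peak at -5.62 kb of Ppp1r1b is the most covered.

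Other matches were few. The core of the cyclic AMP response element, TGACG, was found in the Pde10a promoter peak at -0.385 kb and in its intronic peaks at 72.6 and 322 kb, none of them in a footprint; 24.2% of shared peaks near a start and 11.1% of distal ones held it. The whole palindrome TGACGTCA, the AP-1 site TGANTCA and the MEF2 consensus were in none of the 16 peaks, beside 0.587%, 8.07% and 1.58% of all shared distal peaks. Among all shared peaks near a start the shares were 2.63%, 2.84% and 0.634%. An E-box of neuronal bHLH factors, CAGATG, was in the Pde10a peaks at 67.5 kb, where it overlaps the CTCF match, and at 333 kb, beside 21.2% of distal shared peaks. GGGCGG was also in the promoter peaks of Drd1 and Adora2a and in the Pde10a peak at 276 kb. One copy there overlaps the EGR site GCGNGGGCG, found in 7.63% of shared peaks near a start. The homeobox core TAATTA was in the Pde10a peak at 72.6 kb (2.8% of distal shared peaks). AGGTCA, the site of ROR and other nuclear receptors, was in the Adora2a promoter peak and at -2.95 kb of Ppp1r1b (6.4% of shared peaks near a start and 8.65% of distal ones). The RFX site GTTGCCA was found 3 times in the peak at the start of 1700010I14Rik (3.07% and 4.49%). The NRF1 consensus and the NFI palindrome were in none of the 16 (7.17% and 0.0393% of shared peaks near a start, 0.797% and 0.0677% of distal ones). The absence of a match says only that these letters are not in these windows.

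Most of the listed genes that these receptors signal through had a stricter promoter peak in both libraries. So did 54.9% of all protein-coding genes, and the CpG content of the starts in these lists was not compared. Of 10 G protein and adenylyl cyclase genes, 9 had a stricter promoter peak in both libraries, led by Gng7 (5.11 in replicate 1 and 2.93 in replicate 2) and Gnb1 (3.15 and 3.02). Adcy1 was the exception, with a stricter peak in replicate 2 (0.824) and one of the broader list alone in replicate 1 (0.796). Adcy8 had the lowest of the 9 (1.15 and 1.23). Gnal and Adcy5, the G protein subunit and the cyclase that Drd1 and Adora2a signal through in the striatum, had 1.89 and 1.87, and 2.54 and 1.65. All 12 genes of protein kinase A and the partners of DARPP-32 had a peak, led by the calcineurin subunit gene Ppp3ca (7.12 and 6.6) and the kinase gene Cdk5 (6.22 and 3.87), while Arpp21 had the lowest (1.7 and 1.57).

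Of 8 genes of the RGS9 complex and related regulators, 7 had one in both libraries, led by Rgs2 (4.37 and 4.33) and Rgs4 (3.01 and 2.77) with Rgs6 lowest of these (0.796 and 0.935). Rgs8 had a stricter peak in replicate 1 (0.986) and one of the broader list alone in replicate 2 (0.926). Of 8 other phosphodiesterase genes, 7 had one in both libraries, led by Pde2a (3.01 and 4.03) and Pde4a (2.31 and 2.06) with Pde1a lowest of these (0.9 and 1.24). Pde1b had a stricter peak in replicate 1 (1.25) and one of the broader list alone in replicate 2 (1.12). Among the other adenosine receptor genes, Adora1 had one in both libraries (1.44 and 1.47). Adora2b had a stricter peak in replicate 2 (0.704) and one of the broader list alone in replicate 1 (0.493), and Adora3 had none of either list. Rgs9 at 2.87 and 2.42 was therefore inside the range of its relatives, and Pde10a at 1.54 and 1.55 inside that of the other phosphodiesterases.

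Genes of dopamine supply and striatal identity were counted in the same way. Of 8 genes of synthesis, transport and breakdown of dopamine, Maoa (2.37 and 1.19) and Gch1 (0.853 and 1.35) had one in each library, and Th, Ddc, Slc6a3, Slc18a2 and Maob were among those that did not. Th, Ddc, Slc6a3 and Slc18a2 serve mainly neurons whose cell bodies lie outside the cortex, and any link to the missing peaks was not tested. Of 16 other genes of striatal neurons, 6 had a stricter promoter peak in both libraries, beside 54.9% of all genes, and 12 had one in the broader lists of both, beside 60.8%. Rarb (1.76 and 1.68) was among the highest and Tac1 (0.531 and 0.713) was the lowest. Together, 44 of 65 pathway genes outside the 9 members had a stricter promoter peak in both libraries (67.7%), beside the 54.9% of all genes given above. No difference between lists was tested.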

How the data were processed

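DNase-seq of 2 libraries from left cerebral cortex was analysed from the processed files on mm10. Per notes deposited beside the files, the authors called peaks library by library; the peak caller and the aligner were not given in the sources used here. The deposited signal value of each peak (strength) was used without further scaling, and its normalization is not given. The deposited FDR values, a kind of q-value, list only values under 0.05 for short intervals. Every stricter peak held an interval at 0.001 or less, and every broader peak one at 0.05 or less. Footprints were used as deposited intervals.

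Peaks were counted by midpoint over each gene and 10 kb on each side, and promoter peaks by at least 1 bp of overlap. Genes were GENCODE M21. Sequences came from RefSeq GRCm38.p6, whose chromosomes carry other names and were paired with those of the peak lists by number. The alleles of the hybrid mice could not be separated. Shared peaks are stricter peaks of the libraries that overlap, paired by most shared bases. Printed sequences leave out exon bases, and the sequence of the Adora2a peak, which lies over exons, is not shown. Python 3.11.15, numpy 2.4.6 and pandas 2.3.3 were used, and the counting was tested on simulated intervals. With 1 group of 2 libraries no test was made and no p-value computed; SDs are over the 2 libraries. The members, gene lists, motifs and thresholds were chosen with earlier results of these data known. Named in the text were all 9 members, and from each pathway list the 2 genes of highest and the 1 of lowest mean promoter strength and, where 6 or fewer, those without a promoter peak; Gnal and Adcy5 were added after their values were seen. Of 17 striatal genes listed, 16 matched a symbol. A few genes that this rule or the marker lists would name are counted but not reported here by name.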

Additional observations from a re-analysis of the deposited data

How the results depend on the processing

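The 4 members with a stricter promoter peak in both libraries became 5 with the broader list and 3 with the strongest 50% of peaks, where Adora2a was lost; with either library alone the count was 4 to 5. Over all genes, either library alone gave 12485 to 12517 genes. The median peak density of the members, 0.16 per 10 kb over both libraries, was 0.259 with 50 kb on each side, 0.395 with the broader list and 0.289 as a mean, and 0.112 to 0.208 with 1 library left out. Over all genes the first 3 of these settings gave 0.282, 0.462 and 0.437. Over gene bodies alone the members had 0.141 and all genes 0.00928, a median near the floor. The members' median thus lay above that of all genes, against the order in the other settings. The share of members' stricter peaks found in the other library was 84.4% and became 100% against its broader list. Over all stricter peaks the latter was 91.3% in replicate 1 and 90.3% in replicate 2. With the broader list, 2 adenosine receptor genes and 12 striatal genes were counted, against 1 and 6. These 6 values moved; the other 33 alternatives to these counts and medians did not move the members' or lists' own values beyond their limits. Footprint counts of single members moved most; Ppp1r1b, with a mean of 20.5, had 10 inside stricter peaks alone and 1 in the gene body alone. For CpG-rich members, a minimum ratio of 0.75 left 1 gene, Drd2, which had no stricter promoter peak in both libraries, beside 91.3% of all genes at this limit that did. Searching 200 bp on either side of the peak centre left the number of distal peaks with a CTCF core at 5; this and the CpG limits were chosen after seeing the data. The causes were not tested. No paired analysis was possible because there is a single group. Depth is unknown, so a missing peak is one not called at this depth.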

Other observations

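Weak sites in the broader lists alone added detail at 4 of the genes. In Drd1, replicate 2 had 2 such peaks over the coding exon, of strength 0.667 and 0.509, without a counterpart in replicate 1. In Drd3, a site at 46.2 kb, close to the intronic peak, had 0.379 in replicate 1 and 0.463 in replicate 2. In Rgs9, a pair of intronic sites at 39 and 38.7 kb was in replicate 1 alone (0.777 and 0.881), and sites beyond the 3′ end of the gene were in both libraries (0.635 and 0.654 in replicate 1 and 0.593 in replicate 2). In Pde10a, a site at 205 kb had 0.777 in replicate 1 and 0.537 in replicate 2.

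Beyond the 3′ end of Ppp1r1b, peaks of the broader list in both libraries lay within 1000 bp of the divergent starts of 1700003D09Rik and Stard3, with 1.51 and 1.56 in replicate 1 and 1.38 and 1.74 in replicate 2. Their strengths were near that of the Ppp1r1b promoter, and none was in a stricter list.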
